A study of Mus musculus with 25 samples.

Results

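In adult mouse esophagus, the heterozygote for the cancer-derived NRF2 allele L30F was set against the point midway between the homozygote and wild type, gene by gene. The members are 12 of the 25 libraries of the series: 4 of L30F heterozygotes (NRF2L30F/+::K5CreERT2), 4 of L30F homozygotes (NRF2L30F/L30F::K5CreERT2) and 4 of wild type, chosen by their genotype labels. For each gene the deviation is the mean log2 level of the heterozygotes minus the mean of the homozygote and wild-type log2 means, so a positive deviation places the heterozygote above the log2 midpoint. It was tested as 1 contrast across 19857 genes with limma, and a gene is said to be off the midpoint where the adjusted p is under 0.05.

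In the L30F knock-in, phenylalanine takes the place of leucine at codon 30, in the DLGex motif of NRF2. The CreERT2 recombinase that turns the allele on is driven by the keratin 5 promoter and works after tamoxifen. Mice of 6 to 9 weeks had received 100 µg tamoxifen per g body weight on 3 days, and the esophagus was taken 1 week later. Keratin 5 marks basal squamous cells and their progeny, so muscle, nerve, stromal and immune cells of the esophagus wall were not targeted, yet their RNA is in every library. The labels file the wild-type libraries under K5CreERT2 but give their genotype only as wild type, and do not state whether those mice carried CreERT2, which sex was used, or whether a library stands for 1 animal. The p-values therefore cover the spread among the libraries given. Another 4 libraries, of adult KEAP1flox/flox::K5CreERT2 mice, entered the fit for its estimate of the spread and are not described.

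NRF2, encoded by Nfe2l2, is a transcription factor held at a low level by KEAP1, an adaptor that hands it to the CUL3 ubiquitin ligase. KEAP1 grips NRF2 at the DLG and ETGE motifs, and mutations there, frequent in esophageal squamous cancer, let NRF2 build up and pair with small MAF proteins on antioxidant response elements of glutathione, thioredoxin and detoxification genes. The terms of allele dosage follow from where the heterozygote lies. Dominant means at or beyond the homozygote, recessive means at wild type, and additive means near the midpoint. If each allele adds its own amount of RNA, the heterozygote lies at the arithmetic midpoint, the mean of the homozygote and wild-type levels. For a gene with a large change the arithmetic midpoint is far above the log2 (geometric) midpoint, so both are given below.

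The libraries differed in ways that touch the results. Total reads over the listed genes were 12814894 to 16921613 in heterozygotes and 10867765 to 11643385 in homozygotes, against 27529872 to 32281399 in wild type, and the median within-group SD was 0.196, 0.167 and 0.133 on the log2 scale in the same order. Gene levels below are normalised counts, that is, reads scaled for the depth of each library. Squamous epithelium was well represented, since Krt13, a suprabasal keratin of esophagus, had 281013 to 402153 in heterozygotes and 288154 to 360037 in homozygotes, against 420599 to 542698 in wild type. Acta1, the skeletal muscle actin, had 170129 to 233777 in heterozygotes and 119583 to 171288 in homozygotes, against 129084 to 147184 in wild type, so striated muscle RNA was abundant in all 12. In bulk tissue, fewer cells of a type and less RNA per cell cannot be told apart. Wild-type library 4 stood apart from the other wild-type libraries. Arntl, the activator of the circadian clock, had 75.5, 146, 84.8 and 159 normalised counts in heterozygotes and 209.8, 166, 488 and 197 in homozygotes, against 890.0, 846, 765 and 179 in wild type. Its output gene Dbp ran the other way, with 1401, 2232, 2425 and 2279 in the heterozygote libraries and 1241, 1459, 475 and 1707 in the homozygote libraries, against 184, 227, 138 and 2375 in the wild-type libraries. By these genes wild-type library 4 lay with the heterozygotes, and homozygote library 3 lay between the other homozygotes and wild-type libraries 1 to 3. Sampling times are not given in the labels. The Y-linked gene Ddx3y was detected in every library, at 1134 to 1389 in heterozygotes and 865 to 1277 in homozygotes, against 1023 to 1094 in wild type.

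Off the log2 midpoint were 1782 of 19857 genes, 8.97% of those tested. The heterozygote lay above the midpoint for 998 genes (5.03%) and below it for 784 (3.95%), and the median deviation of all genes was 0.0045. The glutathione genes Slc7a11 and Gclc and the stress keratins Krt6a, Krt6b and Krt16, all higher in both mutants than in wild type, took different positions between the genotypes. Below the midpoint lay 55 of 58 histone genes and 10 of 20 cell cycle genes, and above it lay 13 of 20 striated muscle genes and 7 of 12 Schwann cell genes. With limma-voom on the recovered reads, scaled by total reads alone, the genes above and below numbered 692 and 920. The median deviation of all genes was -0.0575 in that fit. For comparison, 1927 genes (9.7%) differed between heterozygotes and wild type, 4.8% of those tested being higher and 4.9% lower in heterozygotes. Between homozygotes and wild type 4420 genes (22.3%) differed, 11.8% higher and 10.4% lower in homozygotes. Between homozygotes and heterozygotes 3249 (16.4%) differed, 8.07% higher and 8.29% lower in homozygotes.

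Sorting the genes by all these comparisons gave 130 dominant genes, which were off the midpoint toward the homozygote and not called between homozygote and heterozygote, and 23 partly dominant genes, which were also called between homozygote and heterozygote in the same direction. Recessive genes, at the midpoint's wild-type side and not called between heterozygote and wild type, numbered 363, and none was partly recessive. In 54 genes the heterozygote moved opposite to the homozygote, in 5 it moved beyond the homozygote, and in 460 it differed from both while homozygote and wild type were not called different (heterozygote-only). A further 747 genes were off the midpoint without fitting these classes. Only 47 genes were shown to be additive, meaning that the 95% interval placed the heterozygote between 25% and 75% of the log2 distance from wild type to homozygote. For 3798 genes called between homozygote and wild type the position could not be resolved with 4 libraries a group. A comparison that is not called does not show that levels are equal, so dominant and recessive name the side of the midpoint and not an exact level. Genes named for a class, apart from partly dominant and opposite ones, had to have libraries without overlap in the comparison that defines it. Where such a separation is given for them below, it was a condition of naming and no further support for the class.

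**Figure D1:**
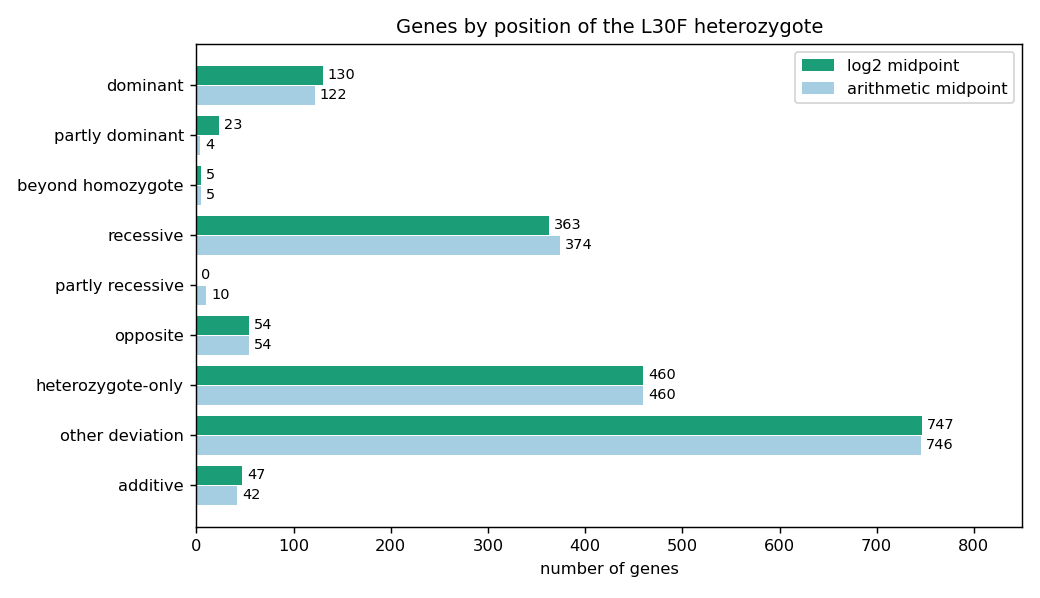
Number of genes in each class of heterozygote position (bars, linear axis from 0), for the log2 midpoint and for the arithmetic midpoint. The heterozygote-only class held 460 genes by either midpoint, while the partly dominant class held 23 genes by the log2 midpoint and 4 by the arithmetic midpoint.

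These counts depended on single libraries. The 1782 genes became 961 without heterozygote library 3 and 1145 without wild-type library 1. They became 2123 without wild-type library 4. Dominant genes numbered 53, 85 and 75 without wild-type library 1, 2 or 3, 75 without heterozygote library 3, 85 without homozygote library 1 and 286 without wild-type library 4. Heterozygote-only genes numbered 274 without heterozygote library 3 and 145, 294 and 217 without wild-type library 1, 2 or 3. Recessive genes numbered 207, 229 and 232 without heterozygote library 3, homozygote library 1 or wild-type library 2. Opposite genes numbered 32, 82 and 33 without heterozygote library 1, 2 or 3, and 15, 28 and 23 without wild-type library 1, 2 or 3. Partly dominant genes numbered 15, 15 and 14 without heterozygote library 3 or homozygote library 1 or 2, and genes beyond the homozygote 0 to 19 over all alternatives. A clock score, the mean log2 level of clock output genes minus that of Arntl and Npas2, was 3.58 to 4.5 in heterozygotes and -0.10 to 3.06 in homozygotes, against -1.51 to -1.19 in wild-type libraries 1 to 3 and 3.59 in wild-type library 4. With this score as a term in the fit, an alternative added after seeing the data, 140 genes were off the midpoint, and with the mean level of 20 striated muscle genes as a term 48 were. With the level of Ddx3y as a term 250 were. The clock score was higher in every heterozygote library than in any homozygote library and any of wild-type libraries 1 to 3. The muscle score and the level of Ddx3y were each higher in every heterozygote library than in any wild-type library. The part of these terms and that of the heterozygous genotype therefore cannot be told apart. Of the 101 named genes off the midpoint, 71 were called in each of the 12 fits that leave out a library. Only 12 of the 101 genes were called in every alternative that keeps the log2 midpoint, up to 28 for a gene.

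Nfe2l2 (ENSMUSG00000015839) itself was lower with each L30F allele. It had 4117, 3307, 3542 and 3293 normalised counts in heterozygotes and 1806, 1618, 1204 and 1199 in homozygotes, against 6110.4, 5203, 5638 and 5695 in wild type, with no overlap between any of the genotypes. The heterozygote mean, 3565, was close to the arithmetic midpoint of 3559 (deviation 0.0028, SE 0.11, adjusted p = 0.99). On the log2 scale its deviation was 0.32 (SE 0.10, adjusted p = 0.059), beside differences from wild type of -0.67 (SE 0.12, adjusted p = 0.0028) in heterozygotes and -1.98 (SE 0.12, adjusted p = 1.2e-08) in homozygotes. The L30F substitution is not visible in gene-level values, so these reads do not separate the mutant from the wild-type transcript. Keap1 (ENSMUSG00000003308) had 1158 ± 104 in heterozygotes and 1269.5 ± 92.6 in homozygotes, against 1148 ± 49.8 in wild type (SD, n = 4 in each genotype here and below), a deviation of -0.063 (SE 0.065, adjusted p = 0.59). Cul3, the ligase scaffold, had 2287 to 2879 in heterozygotes and 2085 to 2278 in homozygotes, against 2208 to 2306 in wild type. Its deviation was 0.22 (SE 0.057, adjusted p = 0.026), and the call ended without heterozygote library 1 or 3 or wild-type library 1 (adjusted p up to 0.085).

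The cystine importer and the catalytic enzyme of glutathione synthesis were far above the log2 midpoint in heterozygotes and close to the arithmetic midpoint. On the log2 scale both were partly dominant. Slc7a11 (ENSMUSG00000027737), which brings in the cystine needed for glutathione, had 19046, 15177, 15968 and 18569 normalised counts in heterozygotes and 37087, 32477, 26627 and 31554 in homozygotes, against 1057, 1271, 1100.1 and 1412 in wild type. Every heterozygote library lay below every homozygote library and above every wild-type library. The heterozygote mean was 81.1% of the way from wild type to homozygote in log2 units and 52.0% of the way in normalised counts. Its deviation was 1.47 (SE 0.10, adjusted p = 1.9e-06) from the log2 midpoint and 0.056 (SE 0.12, adjusted p = 0.81) from the arithmetic midpoint, whose 95% interval was -0.19 to 0.30. Gclc (ENSMUSG00000032350), the catalytic subunit of the enzyme that starts glutathione synthesis, had similar positions. It had 15558, 10511, 10863 and 12077 in the heterozygote libraries and 24947, 20780.2, 15765 and 27186 in the homozygote libraries, against 681, 635, 704 and 661 in the wild-type libraries. Its log2 deviation was 1.67 (SE 0.13, adjusted p = 5.9e-06) and its arithmetic deviation 0.11 (SE 0.15, adjusted p = 0.68). Neither gene lost its log2 call under any of the 28 alternatives that keep the log2 midpoint.

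Gclm, the modifier subunit of the same enzyme, was additive on the log2 scale. It had 2279.8, 2525, 2538 and 2758 normalised counts in heterozygotes and 5589, 4386, 4173 and 5269 in homozygotes, against 953, 909, 959 and 1029 in wild type. The heterozygote covered 59.8% of the log2 distance and 40.2% of the linear distance, with deviations of 0.23 (SE 0.082, adjusted p = 0.1) and -0.20 (SE 0.088, adjusted p = 0.18). Gsr, the glutathione reductase, and Slc3a2, the heavy chain that partners Slc7a11, were additive too, with log2 deviations of 0.088 and 0.15 (adjusted p = 0.72 and 0.17). Of 12 genes of glutathione synthesis and cystine import, 2 were above the log2 midpoint and 0 below (beside 5.03% and 3.95% of all genes), with a median deviation of 0.20. In homozygotes 7 were higher and 1 lower than in wild type (beside 11.8% and 10.4%), and in heterozygotes 6 were higher (beside 4.8%). None of the 12 was off the arithmetic midpoint, beside 8.94% of all genes, 4.45% above it and 4.49% below.

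Srxn1, the sulfiredoxin that repairs oxidised peroxiredoxins, had 7752, 5047, 5997 and 6043 normalised counts in heterozygotes and 11311, 9148, 6227 and 13172 in homozygotes, against 951, 1082, 1134 and 745 in wild type. Homozygote library 3 lay among the heterozygotes, and all mutant libraries lay above wild type. The deviation was 1.01 (SE 0.18, adjusted p = 0.0041) from the log2 midpoint and 0.22 (SE 0.20, adjusted p = 0.54) from the arithmetic midpoint. Nqo1 (ENSMUSG00000003849), a quinone reductase and a standard readout of NRF2, had 3943, 3863, 4244 and 4760.1 in the heterozygote libraries and 6815, 5515, 4833 and 8055 in the homozygote libraries, against 1240.3, 984, 1035 and 1094 in the wild-type libraries. The genotypes did not overlap, and the deviations were 0.69 (SE 0.11, adjusted p = 0.0018) and 0.20 (SE 0.12, adjusted p = 0.31). Gstm1, a glutathione transferase of the mu class, had 28623, 36650.4, 40112 and 38537 normalised counts in heterozygotes and 68533, 57621, 41691 and 78566 in homozygotes, against 7843, 5901, 7185 and 6691 in wild type, with deviations of 0.81 (SE 0.15, adjusted p = 0.0042) and 0.095 (SE 0.16, adjusted p = 0.76). Homozygote library 3 was the lowest homozygote for all 3 genes and for Gclc. Txnrd1, the thioredoxin reductase, had 2124 to 3158 in heterozygotes and 2368 to 3848 in homozygotes, against 1559 to 2079.9 in wild type. It was called higher in homozygotes than in wild type, and its position was unresolved (deviation 0.17, SE 0.13, adjusted p = 0.46).

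**Figure D2:**
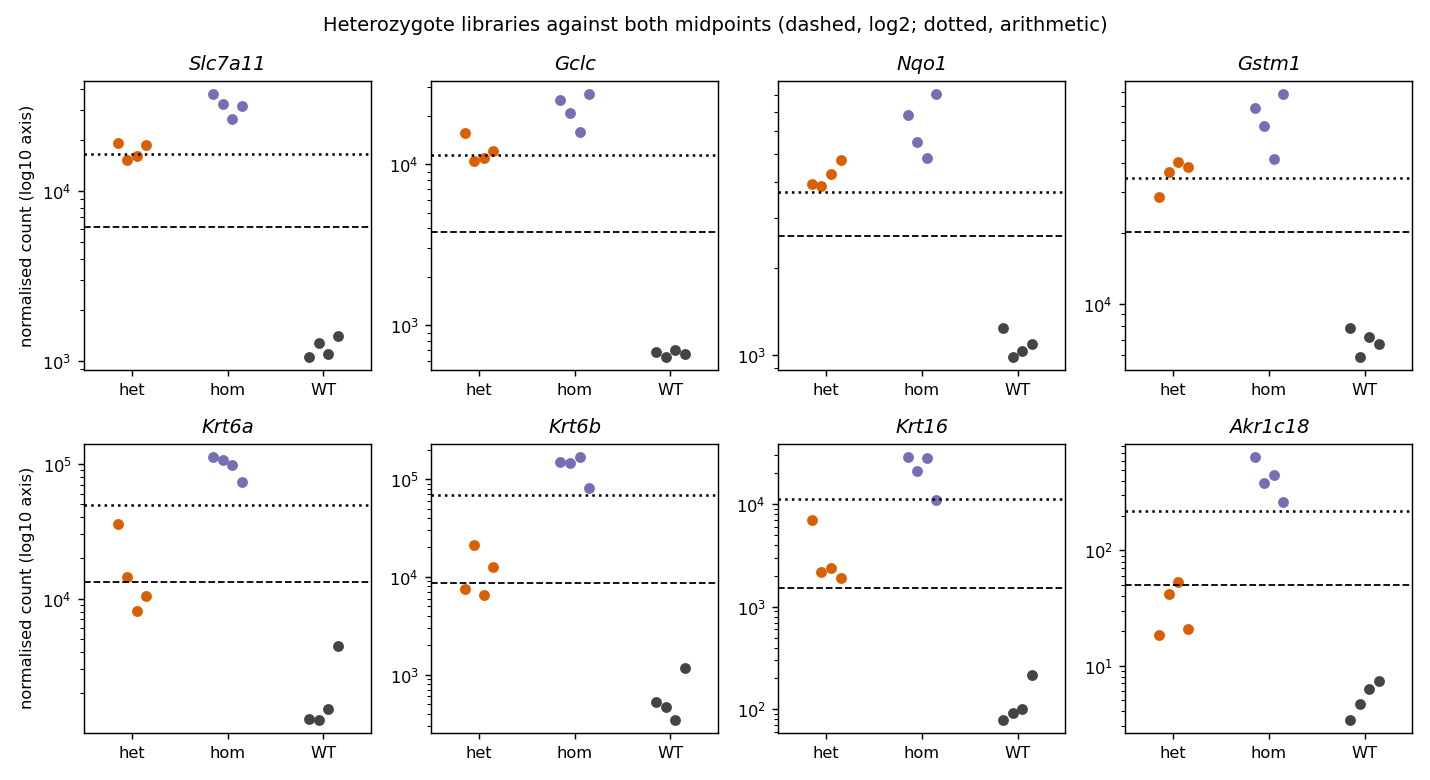
Normalised counts (log10 axis) of 4 NRF2 targets, 3 stress keratins and Akr1c18 in heterozygote, homozygote and wild-type libraries; each point is a library, the dashed line the log2 midpoint and the dotted line the arithmetic midpoint. The heterozygote points of Slc7a11, Gclc, Nqo1 and Gstm1 lie near the dotted line. Those of Krt6a and Krt6b lie around the dashed line, those of Krt16 above it and those of Akr1c18 on average below it. In these genes all heterozygote points lie below the dotted line.

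Among 19 glutathione transferases 5 were above the log2 midpoint and 0 below (beside 5.03% and 3.95% of all genes, median deviation 0.17). By the arithmetic midpoint 1, Gstt1, was above (beside 4.45%). Without heterozygote library 3 the count of 5 was 3, and with the muscle, Ddx3y or clock term it was 0, 2 or 0. Gsta3, an alpha-class transferase, had 307 to 375 in heterozygotes and 478 to 781 in homozygotes, against 48.5 to 85.4 in wild type (log2 deviation 0.73, SE 0.14, adjusted p = 0.006, and arithmetic deviation -0.061, SE 0.16, adjusted p = 0.85). Of 24 aldo-keto, aldehyde and quinone enzymes, 5 were above the log2 midpoint (beside 5.03% of all genes) and 0 below, and 2 were above and 1 below the arithmetic midpoint (beside 4.45% and 4.49%). In heterozygotes 12 of the 24 were higher than in wild type (beside 4.8%), and in homozygotes 15 were higher and 1 lower (beside 11.8% and 10.4%). The carbonyl reductase Cbr1 had 845 to 1079 in heterozygotes and 968 to 1489 in homozygotes, against 279 to 350.2 in wild type, and the biliverdin reductase Blvrb had 1221 to 1337 in heterozygotes and 1369.6 to 2504 in homozygotes, against 370.4 to 459 in wild type. Both were above the log2 midpoint, by 0.56 and 0.54 (adjusted p = 0.007 and 0.011), and neither was off the arithmetic midpoint (adjusted p = 0.21 and 0.5). Of 8 exporters of drugs and conjugates, 4 were above the log2 midpoint (beside 5.03% of all genes). Abcc4 had 3073, 2890.1, 3134 and 3049.8 normalised counts in heterozygotes and 5772, 4812, 4248 and 6395 in homozygotes, against 738, 703, 806 and 817 in wild type, a log2 deviation of 0.60 (SE 0.10, adjusted p = 0.0019) and a heterozygote mean of 3037 against an arithmetic midpoint of 3036. Abcc1 was additive at 3658 to 3979 in heterozygotes and 4668 to 6454 in homozygotes, against 2316 to 2549 in wild type. Abcg2, by contrast, was higher in heterozygotes alone, at 436 to 519 in heterozygotes and 249 to 378 in homozygotes, against 273 to 381 in wild type (deviation 0.53, SE 0.11, adjusted p = 0.009).

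The metallothionein Mt3, a zinc and copper binding protein, had the largest log2 deviation of the partly dominant genes that rose. It had 841, 1386, 1056 and 1116 normalised counts in heterozygotes and 2276, 1867, 1509 and 2682 in homozygotes, against 41.3, 57.4, 66 and 27.6 in wild type. The deviation was 1.81 (SE 0.21, adjusted p = 0.00016) in log2 units and 0.056 (SE 0.24, adjusted p = 0.91) from the arithmetic midpoint, with heterozygotes at 1099.6 normalised counts on average against an arithmetic midpoint of 1066. The noncoding RNA gene Snhg11 ran in parallel, at 384 to 655 in heterozygotes and 649.6 to 1200.5 in homozygotes, against 42.3 to 64.3 in wild type (log2 deviation 1.29, SE 0.17, adjusted p = 0.00044, and arithmetic deviation 0.16, SE 0.19, adjusted p = 0.65). Of the 23 partly dominant genes, 21 were unresolved and 1 was additive when the arithmetic midpoint was used. The remaining gene, Bglap2, was the only partly dominant gene that fell. It had 8.53, 4.3, 7.27 and 0 normalised counts in heterozygotes and 0, 0, 0 and 0 in homozygotes, against 364, 351, 412 and 100.1 in wild type. Its log2 deviation was -1.86 (SE 0.53, adjusted p = 0.039). With no read in the 4 homozygote libraries it was at least 252-fold lower there than in wild type, taking 3 reads over the 4 libraries together as the floor. Its near-identical copies Bglap and Bglap3 make its level uncertain, and its log2 call was made in 4 of the 12 fits that leave out a library (adjusted p up to 0.098).

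Of 18 proteasome subunits, which form a class of genes known to respond to NRF2, 13 were higher in heterozygotes and 16 in homozygotes than in wild type, beside 4.8% and 11.8% of all genes. None of the 18 was called off either midpoint, beside 8.97% of all genes for the log2 midpoint and 8.94% for the arithmetic midpoint. For 18 genes 0 calls is near those shares. Of the 18, 0 were shown to be additive and 16 were unresolved. Their median log2 difference from wild type was 0.28 in heterozygotes and 0.34 in homozygotes. Psma5 gave log2 differences from wild type of 0.40 in heterozygotes and 0.67 in homozygotes, and Psmb5, the chymotrypsin-like subunit, 0.29 and 0.35. NADPH-producing enzymes were off neither midpoint in any of 8 cases, which is near the same shares for so few genes. In homozygotes 3 were higher and 2 lower than in wild type, beside 11.8% and 10.4% of all genes.

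The sequence through which NRF2 is known to act was looked for in the 250 bases before and 50 bases after each RefSeq gene start. The letters TGACNNNGC (N being any base), the core of the antioxidant response element, stood on either strand in 16.4% of 12778 promoters of tested genes. They stood in 3 of 19 promoters of partly dominant genes (15.8%), in 14 of 89 of dominant genes (15.7%) and in 12 of 32 of additive genes (37.5%). The window of Gsta3 (RefSeq, GRCm38.p6, chr1:21240424-21240512, plus strand) is shown because the gene is partly dominant and its match lies in the window in full, with the match in capitals.
Gsta3: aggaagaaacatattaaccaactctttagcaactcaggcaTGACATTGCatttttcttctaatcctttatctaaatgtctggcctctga
The match ends 113 bases before the gene start. Slc7a11, Nqo1, Gstm1 and Mt3 had promoters in the table without these letters, and Gclc and the stress keratins were not in it. Sequence outside this window was not searched, so these genes may hold the element further from the start.

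**Figure D3:**
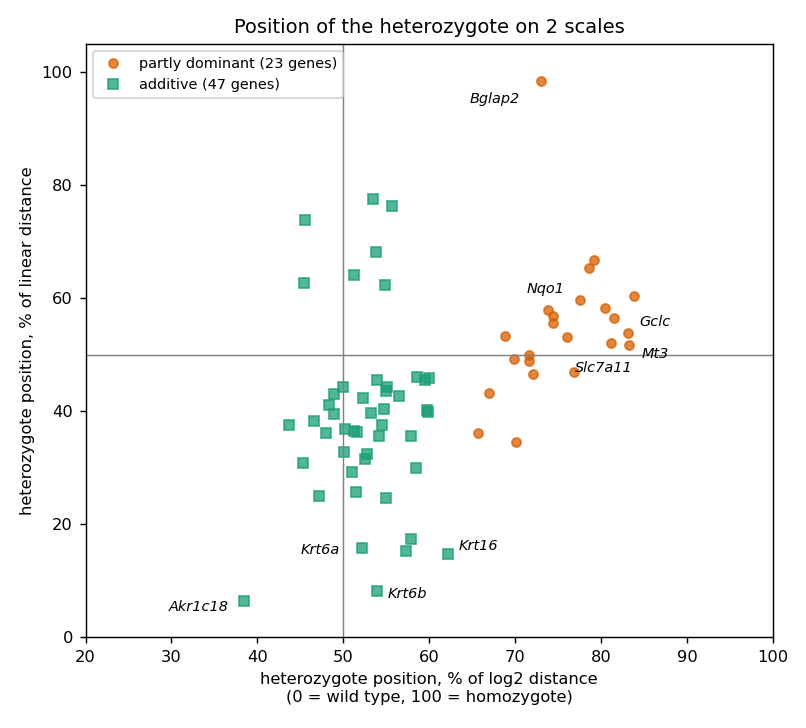
Position of the heterozygote mean between wild type (0%) and homozygote (100%) for the 23 partly dominant and 47 additive genes, in log2 units (horizontal axis) and in normalised counts (vertical axis), each point a gene. Partly dominant genes that rose lie right of 50% on the horizontal axis and on both sides of 50% on the vertical axis, while Krt6a, Krt6b, Krt16 and Akr1c18 lie under 16% on the vertical axis.

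Stress keratins, which wounded and hyperproliferative squamous epithelium makes, took another position. Of 4 in the list, 3 were additive on the log2 scale and below the arithmetic midpoint, so that heterozygotes held a small part of the homozygote amount. Krt6b (ENSMUSG00000023041) had 7524, 21009, 6535 and 12539 normalised counts in heterozygotes and 151532, 146614, 168965 and 80608 in homozygotes, against 530.4, 472, 345 and 1176 in wild type. The genotypes did not overlap, and the heterozygote covered 53.9% of the log2 distance and 8.27% of the linear distance. Its deviation was 0.30 (SE 0.33, adjusted p = 0.62) from the log2 midpoint and -2.63 (SE 0.38, adjusted p = 0.0013) from the arithmetic midpoint. Krt16, the partner of type II stress keratins, had 6919.6, 2182, 2394 and 1907 in the heterozygote libraries and 28647, 20831, 27811 and 10937 in the homozygote libraries, against 79.3, 91.6, 101 and 216 in the wild-type libraries. Its deviations were 0.91 (SE 0.36, adjusted p = 0.13) and -1.85 (SE 0.41, adjusted p = 0.014). Krt6a had 35693, 14370.3, 8038 and 10444 normalised counts in heterozygotes and 112795, 106622, 97725 and 73183 in homozygotes, against 1266, 1258, 1513 and 4445 in wild type, with deviations of 0.13 (SE 0.37, adjusted p = 0.87) and -1.77 (SE 0.43, adjusted p = 0.021). Krt17, the other gene of the list, varied widely within every genotype, from 20.7 to 2627 in heterozygotes and 338 to 1229 in homozygotes, against 49.4 to 516 in wild type, and was not called in any comparison. Wild-type library 4 was the highest wild-type library for all 4 keratins. Krt6a and Krt6b are near-identical copies, so reads shared between them make their separate levels uncertain.

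Among 211 genes at least 2 log2 units higher in homozygotes than in wild type, the median heterozygote covered 56.8% of the log2 distance and 34.6% of the linear distance. Of these genes 39 were above and 12 below the log2 midpoint, beside 5.03% and 3.95% of all genes. By the arithmetic midpoint 0 were above and 31 below, beside 4.45% and 4.49%. The homozygote level that picked these genes also enters both midpoints, so the split is partly set by the choice of genes. By the linear distance Slc7a11 and Gclc were above the median of 34.6% and the 3 stress keratins below it. Akr1c18, an aldo-keto reductase that inactivates progesterone, was additive in log2 units at 18.3 to 53.3 in heterozygotes and 265 to 648 in homozygotes, against 3.39 to 7.39 in wild type, and -2.75 from the arithmetic midpoint (adjusted p = 0.0002). Glyat, a glycine conjugating enzyme, was additive as well, at 20.6 to 30.1 in heterozygotes and 101 to 192 in homozygotes, against 0 to 5.6 in wild type (deviation 0.43, SE 0.37, adjusted p = 0.5).

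Additive falls were fewer, 7 of the 47 additive genes. Calml3, a calmodulin-like protein of differentiating keratinocytes, had 6668, 4425, 7464 and 6605 normalised counts in heterozygotes and 3215, 2854, 3534 and 4123 in homozygotes, against 12757, 11014, 13759.9 and 12069 in wild type. The libraries of the 3 genotypes did not overlap, and the deviation was -0.07 (SE 0.14, adjusted p = 0.79). Padi1, which converts arginine to citrulline in differentiating epithelium, had 125 to 350.0 in heterozygotes and 67.8 to 103 in homozygotes, against 559.9 to 1073 in wild type (deviation -0.12, SE 0.29, adjusted p = 0.84), and Nlrp10, a NOD-like receptor abundant in keratinocytes, had 517 to 993 in heterozygotes and 303 to 413 in homozygotes, against 1079 to 1898 in wild type (deviation 0.10, SE 0.19, adjusted p = 0.79). Agps, an ether lipid enzyme of peroxisomes, fell by less, at 1751 to 2073 in heterozygotes and 1336 to 1672 in homozygotes, against 2352 to 2869 in wild type, with a deviation interval of -0.20 to 0.11. Among 24 cornified envelope genes 15 were lower in homozygotes and 8 in heterozygotes, beside 10.4% and 4.9% of all genes. Off the log2 midpoint were 0, beside 8.97% (median deviation -0.27). Of the 24, 0 were shown to be additive and 16 were unresolved. Their median log2 difference from wild type was -0.68 in heterozygotes and -0.86 in homozygotes.

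Dominant genes lay on the homozygote side of the midpoint with 1 allele and were not called different from the homozygote. Epgn (ENSMUSG00000035020), which encodes the EGF receptor ligand epigen, had 453, 235, 129.6 and 119 normalised counts in heterozygotes and 746, 595, 249 and 530.0 in homozygotes, against 8.81, 5.8, 13.7 and 5.38 in wild type. Its deviation was 1.61 (SE 0.37, adjusted p = 0.014), and -0.31 (SE 0.42, adjusted p = 0.69) from the arithmetic midpoint. The log2 call was made in all 12 fits that leave out a library and was lost with limma-voom and with the muscle, Ddx3y or clock term (adjusted p up to 0.54). Rxfp3, a relaxin family receptor, had 60.8 to 138 in heterozygotes and 107 to 227 in homozygotes, against 0 to 3.36 in wild type (deviation 2.23, SE 0.32, adjusted p = 0.00092). Slc16a5, a monocarboxylate transporter, had 78, 27.2, 27.9 and 59.3 in the heterozygote libraries and 66.3, 58, 50.4 and 108 in the homozygote libraries, against 0, 0, 0 and 0 in the wild-type libraries. With no read in wild type, taking 3 reads over the 4 libraries together as the floor, it was at least 101-fold higher in heterozygotes and at least 148-fold higher in homozygotes. Serpina12, which encodes the serpin vaspin, had 201 to 541 in heterozygotes and 378 to 846 in homozygotes, against 5.38 to 48.7 in wild type (deviation 1.89, SE 0.44, adjusted p = 0.017, and adjusted p = 0.065 without heterozygote library 3). Epgn, Rxfp3, Slc16a5 and Serpina12 were unresolved when the arithmetic midpoint was used. Of the 130 dominant genes 92 were dominant and 38 unresolved by the arithmetic midpoint.

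The dominant falls named here were dominant by both midpoints. Wnt16 (ENSMUSG00000029671), a WNT ligand of keratinocytes, had 4.87, 8.6, 8.48 and 28.2 normalised counts in heterozygotes and 12.6, 19.9, 45.9 and 22.7 in homozygotes, against 77.2, 142, 139 and 56.5 in wild type. Both mutants lay below all wild-type libraries, heterozygotes lowest on average, and the deviations were -2.11 (SE 0.40, adjusted p = 0.0053) and -2.44 (SE 0.42, adjusted p = 0.0033). Klk14, a serine protease that loosens surface cells, had 3084, 2144, 3963 and 3958 normalised counts in heterozygotes and 3597, 3414, 3627 and 2898 in homozygotes, against 10243, 6987, 9352 and 6559 in wild type (deviation -0.71, SE 0.19, adjusted p = 0.027). Its call ended without heterozygote library 1 or 2 or wild-type library 1 (adjusted p up to 0.081). Pfkl, a phosphofructokinase subunit of glycolysis, had 797 to 947 in heterozygotes and 912 to 1172 in homozygotes, against 1451 to 1746 in wild type (deviation -0.56, SE 0.078, adjusted p = 0.00066), and Ehf, an ETS factor of squamous epithelium, 3433 to 4615 in heterozygotes and 3764 to 5368 in homozygotes, against 5363 to 6166 in wild type (deviation -0.37, SE 0.087, adjusted p = 0.015). Lrfn3, a synaptic adhesion protein, had 116 to 144 in heterozygotes and 114 to 169.7 in homozygotes, against 216 to 301 in wild type (deviation -0.61, SE 0.13, adjusted p = 0.011). Erbb2, a receptor of the EGF receptor family, was at 2002 to 2620.1 in heterozygotes and 2048 to 2608 in homozygotes, against 3291 to 3896 in wild type (deviation -0.32, SE 0.09, adjusted p = 0.034), and its call was made in 6 of the 12 fits that leave out a library (adjusted p up to 0.098).

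Recessive genes differed between homozygotes and wild type and were not called between heterozygotes and wild type. Small proline-rich proteins, from which the cornified envelope is built, gave epithelial examples. Sprr2e had 2.44, 10, 4.84 and 0 normalised counts in heterozygotes and 149.9, 128, 388 and 29.6 in homozygotes, against 1.35, 5.22, 1.24 and 2.02 in wild type. Heterozygote and wild-type libraries overlapped, and all homozygote libraries lay above both. The deviation was -2.35 (SE 0.63, adjusted p = 0.031), but it was called in only 6 of the 12 fits that leave out a library (adjusted p 0.0084 to 0.091), and the related Sprr2f in 3 of 12. The calls of Sprr2e ended without heterozygote library 1, 3 or 4, homozygote library 1 or wild-type library 1 or 2. Of 13 genes of the family 3 were below the log2 midpoint and 0 above (beside 3.95% and 5.03% of all genes, median deviation -0.91). In homozygotes 6 were higher and 3 lower than in wild type (beside 11.8% and 10.4%). Reads shared between Sprr2 copies make their separate levels uncertain. Serpina3i, a serine protease inhibitor, had 6.09, 37.3, 17 and 23.7 normalised counts in heterozygotes and 103, 116, 107 and 109.8 in homozygotes, against 19, 24.9, 24.9 and 26.2 in wild type (deviation -1.48, SE 0.30, adjusted p = 0.0075, called in all 12 such fits). Cyp4f18, a fatty acid hydroxylase of myeloid cells, had 8.6 to 32.9 in heterozygotes and 55.8 to 156 in homozygotes, against 22.9 to 42.3 in wild type (deviation -1.30, SE 0.32, adjusted p = 0.019). Of 18 leukocyte genes 0 were higher in heterozygotes and 9 in homozygotes than in wild type, beside 4.8% and 11.8% of all genes, and 0 were off the midpoint, beside 8.97%. The 9 were unresolved, and 0 of the 18 were recessive. Their median log2 difference from wild type was 0.33 in heterozygotes and 0.88 in homozygotes.

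Recessive falls included Cdh19, a cadherin of Schwann cells. It had 496, 377, 406 and 688 normalised counts in heterozygotes and 114, 123, 109 and 176 in homozygotes, against 285, 473, 309 and 224 in wild type, a deviation of 1.26 (SE 0.21, adjusted p = 0.0024). All homozygote libraries lay below all others, and heterozygotes were not called different from wild type (log2 difference 0.62, SE 0.24, adjusted p = 0.12). Nrn1, which encodes the neurite growth factor neuritin, had 57.3 to 84.5 in heterozygotes and 14.9 to 29.6 in homozygotes, against 26.9 to 56.8 in wild type (deviation 1.25, SE 0.24, adjusted p = 0.0054). Scgb1a1, the secretoglobin of airway club cells, had 46.3 to 61.6 in heterozygotes and 0 to 4.97 in homozygotes, against 22.4 to 51 in wild type (deviation 2.39, SE 0.41, adjusted p = 0.003). It is 1 of 6 thyroid and airway genes measured, 2 of which were above the midpoint (beside 5.03% of all genes), and the part of cells from neighbouring airway was not tested.

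Of 58 replication-dependent histone genes 34 were lower in heterozygotes and 50 higher in homozygotes than in wild type, beside 4.9% and 11.8% of all genes, and 32 were classed as opposite and 18 as recessive. They encode the histones that package newly made DNA, and their transcripts are made in S phase. H1f5 (ENSMUSG00000058773), a linker histone, had 199.8, 281, 196 and 233 normalised counts in heterozygotes and 1126, 859, 987 and 1400.0 in homozygotes, against 511, 410.4, 473 and 326 in wild type. Every heterozygote library was lower than every wild-type library, and every homozygote library higher. The deviation was -1.58 (SE 0.14, adjusted p = 2.1e-05), and the log2 differences from wild type were -0.91 (SE 0.17, adjusted p = 0.0039) in heterozygotes and 1.34 (SE 0.17, adjusted p = 6e-05) in homozygotes. H2bc12, a core histone, had 213, 275, 171 and 224 normalised counts in heterozygotes and 965, 665, 719.9 and 898 in homozygotes, against 528, 446, 500.3 and 267 in wild type (deviation -1.41, SE 0.17, adjusted p = 0.00027). H1f3 had 439.9, 623, 460.2 and 548 in the heterozygote libraries and 2125, 1832, 2053 and 2817 in the homozygote libraries, against 907, 726, 868 and 967 in the wild-type libraries (deviation -1.42, SE 0.14, adjusted p = 4.7e-05), and H1f1 had 106, 188, 116 and 135 in the heterozygote libraries and 764, 547, 616 and 725 in the homozygote libraries, against 268, 179, 222 and 204 in the wild-type libraries (deviation -1.50, SE 0.15, adjusted p = 5.4e-05). These 3 linker histone calls held in all 28 alternatives. Of 58 histone genes tested, a list drawn up after values were seen, 55 were below the midpoint and 0 above, beside 3.95% of all genes below. The median deviation was -1.16. By family, 5 of 5 H1 genes, 14 of 15 H2a, 14 of 15 H2b, 11 of 11 H3 and 11 of 12 H4 genes were below the midpoint. Near-identical histone copies share reads, so the count of separate genes is uncertain. With the striated muscle score as a term 13 of the 58 were called, with the clock score 32 and with Ddx3y 37.

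The promoters of the 3 linker histones are shown because these genes moved together and hold motifs of histone promoters, with CCAAT (read on either strand as CCAAT or ATTGG) and the H1 box AAACACA in capitals (RefSeq, GRCm38.p6, each ending at the base before the gene start, 5′ to 3′ on the gene's strand; H1f1 at chr13:23763543-23763667 and H1f3 at chr13:23554907-23555031, both plus strand, and H1f5 at chr13:21780626-21780750, minus strand).
H1f1: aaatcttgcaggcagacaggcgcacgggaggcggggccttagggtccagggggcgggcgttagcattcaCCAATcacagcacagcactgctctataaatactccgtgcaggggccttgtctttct
H1f3: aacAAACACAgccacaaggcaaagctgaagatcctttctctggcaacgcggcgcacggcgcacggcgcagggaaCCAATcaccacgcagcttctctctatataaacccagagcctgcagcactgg
H1f5: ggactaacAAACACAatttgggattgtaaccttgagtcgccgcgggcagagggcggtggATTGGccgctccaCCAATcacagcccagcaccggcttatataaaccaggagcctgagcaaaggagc
Over 250 bases before and 50 after the start, CCAAT stood on either strand in 26 of 28 histone promoters in the table (92.9%), against 42.2% of 12778 promoters of tested genes. AAACACA stood in 4 of 5 promoters of H1 genes (80.0%), against 6.08% of all, and the octamer ATTTGCAT in 4 of 6 of H2b genes (66.7%), against 1.77%. A match is a description of the letters and shows no binding.

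Of 20 cell cycle genes 10 were below the midpoint in heterozygotes and 0 above, beside 3.95% and 5.03% of all genes, with a median deviation of -0.79. Top2a, the topoisomerase that separates chromosomes, had 609, 964, 586 and 837 normalised counts in heterozygotes and 2513, 1748, 1958 and 1904 in homozygotes, against 1961, 1799, 1929 and 871 in wild type. Heterozygotes lay below homozygotes without overlap, but wild-type library 4, at 871, lay far below the other wild-type libraries and below heterozygote library 2. The deviation was -1.27 (SE 0.20, adjusted p = 0.0017). Cit, the citron kinase of cell division, had 109.7, 152, 109 and 141 normalised counts in heterozygotes and 465, 272, 409.6 and 417 in homozygotes, against 417, 354, 383 and 186 in wild type (deviation -1.46, SE 0.19, adjusted p = 0.00044), and Bub1, a checkpoint kinase, had 34.1 to 65.2 in heterozygotes and 136 to 189 in homozygotes, against 54.4 to 131 in wild type (deviation -1.37, SE 0.23, adjusted p = 0.0025). Neil3, a DNA glycosylase of dividing cells, had 19.3 to 31.5 in heterozygotes and 71.8 to 93.1 in homozygotes, against 32.9 to 72.2 in wild type (deviation -1.44, SE 0.18, adjusted p = 0.00035), and Sgo1, the shugoshin that guards sister chromatids, had 32.6 to 51.6 in heterozygotes and 101 to 147 in homozygotes, against 53.1 to 111 in wild type (deviation -1.30, SE 0.18, adjusted p = 0.00072). The 10 genes of the list below the midpoint were Aurka, Aurkb, Bub1, Ccna2, Ccnb1, Ccnb2, Cdk1, Mki67, Plk1 and Top2a, with deviations from -1.53 (Plk1) to -1.11 (Aurka). Of the 10, 9 were heterozygote-only. Without a library at a time the count was 8 to 11, and with the muscle, Ddx3y or clock term it was 0, 1 or 0. The replication helicase genes Mcm2, Mcm3, Mcm4, Mcm5, Mcm6 and Mcm7 were not called off the midpoint, with deviations from -0.18 (Mcm5) to 0.029 (Mcm4), and all 6 were higher in homozygotes than in wild type. This division within the list was seen in the values and was not tested.

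**Figure D4:**
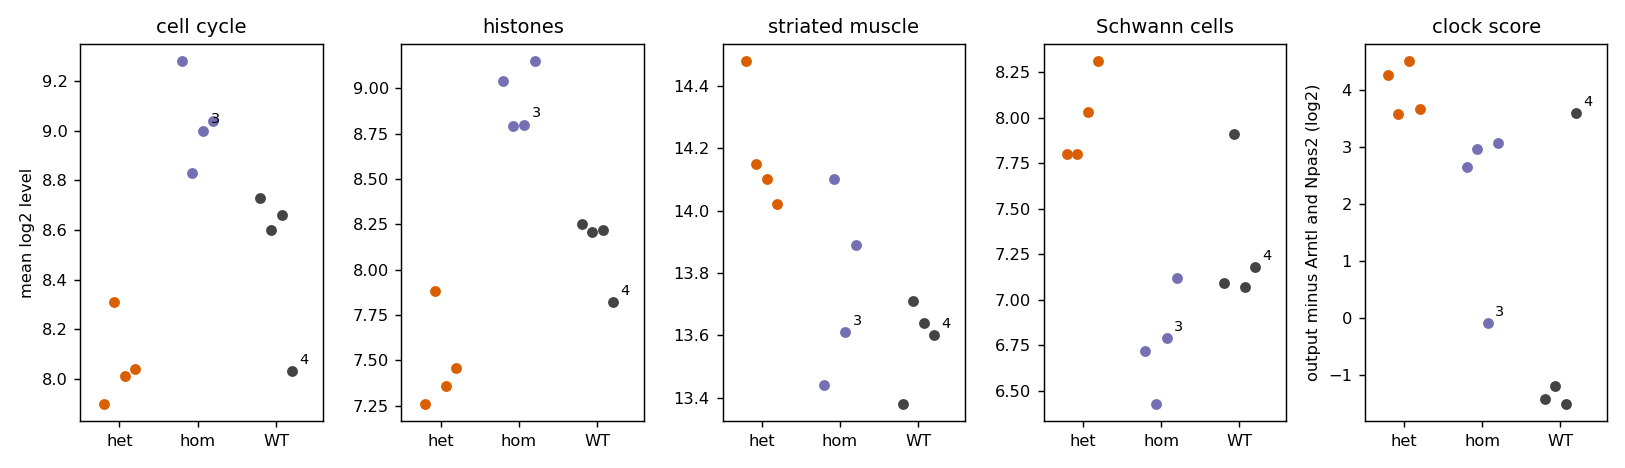
Mean log2 level of gene lists in each library (points, by genotype; numbers mark homozygote library 3 and wild-type library 4), and the clock score. Heterozygotes are lowest for cell cycle and histone genes apart from overlaps with wild-type library 4, highest for striated muscle apart from homozygote library 2, and wild-type library 4 has the clock score of the heterozygotes.

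Heterozygotes were above the midpoint for many genes of muscle, nerve sheath and glucocorticoid response. Of 20 striated muscle genes 13 were above the midpoint and 0 below, beside 5.03% of all genes above, with a median deviation of 0.51. Their mean log2 level was 14.02 to 14.48 in heterozygotes and 13.44 to 14.10 in homozygotes, against 13.38 to 13.71 in wild type. Without heterozygote library 1 or 3 the count was 8 or 7, and with the Ddx3y or clock term it was 0. With the muscle term it was 0 too, but that term is the mean of these same 20 genes. Its count therefore follows from how the term is built and tests nothing here. Acta1 had a deviation of 0.51 (SE 0.12, adjusted p = 0.015). Ckm, the muscle creatine kinase, moved opposite in the mutants, at 36987 to 61012 in heterozygotes and 21002 to 29129.7 in homozygotes, against 31143 to 39363 in wild type (deviation 0.70, SE 0.12, adjusted p = 0.0035). Mstn, the muscle growth inhibitor myostatin, went beyond the homozygote. It had 1337, 741, 1379 and 1080.3 normalised counts in heterozygotes and 598, 723, 544 and 579 in homozygotes, against 312, 359, 289 and 616 in wild type (deviation 1.20, SE 0.19, adjusted p = 0.0017). Klhl33, a kelch protein, had 904 to 1710.1 in heterozygotes and 267 to 502 in homozygotes, against 754 to 907 in wild type (deviation 1.27, SE 0.16, adjusted p = 0.00042). Of 13 mitochondrially encoded proteins, a list drawn up after values were seen, 8 were above the midpoint and 1 below, beside 5.03% and 3.95% of all genes. Their median deviation was 0.38, and 0, 2 and 4 were above with the muscle, Ddx3y or clock term. Among them mt-Nd5, a complex I subunit, had 22671 to 31179.6 in heterozygotes and 16394 to 21779 in homozygotes, against 14511 to 16625 in wild type (deviation 0.63, SE 0.085, adjusted p = 0.00049). The part of muscle content in these values cannot be told apart from that of genotype.

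Schwann cell genes, which insulate peripheral nerve, were above the midpoint for 7 of 12, a list drawn up after values were seen, and 0 were below (beside 5.03% and 3.95% of all genes, median deviation 1.06). The count was 4 without heterozygote library 3, 4 without heterozygote library 4, and 0, 5 and 0 with the muscle, Ddx3y or clock term. S100b, a calcium-binding protein of glia, had 53 to 60.9 in heterozygotes and 24.5 to 36.5 in homozygotes, against 31.2 to 49.9 in wild type (deviation 0.74, SE 0.20, adjusted p = 0.03). Its call was made in 6 of the 12 fits that leave out a library and ended without heterozygote library 1, 3 or 4, homozygote library 1 or wild-type library 1 or 3 (adjusted p up to 0.08). Lsamp, a neural adhesion protein, had 362, 299, 369 and 362 normalised counts in heterozygotes and 101, 113, 101 and 122 in homozygotes, against 239.8, 208, 177 and 299.8 in wild type. All homozygote libraries lay below the others, and all heterozygote libraries above wild type apart from heterozygote library 2 and wild-type library 4, which had nearly the same value. The deviation was 1.14 (SE 0.12, adjusted p = 6.9e-05), called in all 28 alternatives. Inmt, an indolethylamine methyltransferase, had 311 to 1211 in heterozygotes and 73.4 to 103 in homozygotes, against 169.8 to 374 in wild type (deviation 2.0, SE 0.30, adjusted p = 0.0012). Adipose genes varied widely between libraries: 1 of 9, Car3, was above the midpoint (beside 5.03% of all genes), and their mean log2 level was 7.34 to 9.38 in heterozygotes and 4.74 to 7.67 in homozygotes, against 5.96 to 8.13 in wild type.

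Tsc22d3 (ENSMUSG00000031431), the glucocorticoid-induced leucine zipper that damps inflammation, exceeded both other genotypes in heterozygotes. It had 6539, 5038, 4736 and 4969 normalised counts in heterozygotes and 2967, 3279.9, 2123 and 2695 in homozygotes, against 1728, 2137, 2449.6 and 1988 in wild type. All 4 heterozygote libraries lay above all others, and the deviation was 1.15 (SE 0.12, adjusted p = 7e-05), called in all 28 alternatives. Of 15 genes known to be induced by glucocorticoids, a list drawn up after values were seen, 7 were above the midpoint and 0 below, beside 5.03% and 3.95% of all genes. Their median deviation was 0.34. The count above was 5 to 7 without a library at a time, and 1, 2 and 1 with the muscle, Ddx3y or clock term. Hif3a, an HIF family member, had 301, 209, 111 and 273 normalised counts in heterozygotes and 56.8, 91.2, 35.2 and 75 in homozygotes, against 50.8, 95.6, 94.6 and 59.8 in wild type (deviation 1.64, SE 0.28, adjusted p = 0.0027), and Fam107a, an actin-associated stress gene, had 129.6 to 358 in heterozygotes and 48.9 to 111 in homozygotes, against 41 to 55.4 in wild type (deviation 1.85, SE 0.25, adjusted p = 0.0006). Zbtb16, the zinc finger factor PLZF, had 3473 to 6747 in heterozygotes and 1501 to 3306 in homozygotes, against 1548 to 3183 in wild type (deviation 1.06, SE 0.25, adjusted p = 0.019). Other members were not called, such as Sgk1 (deviation 0.20, SE 0.13, adjusted p = 0.36) and Dusp1 (deviation -0.20, SE 0.17, adjusted p = 0.49).

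**Figure D5:**
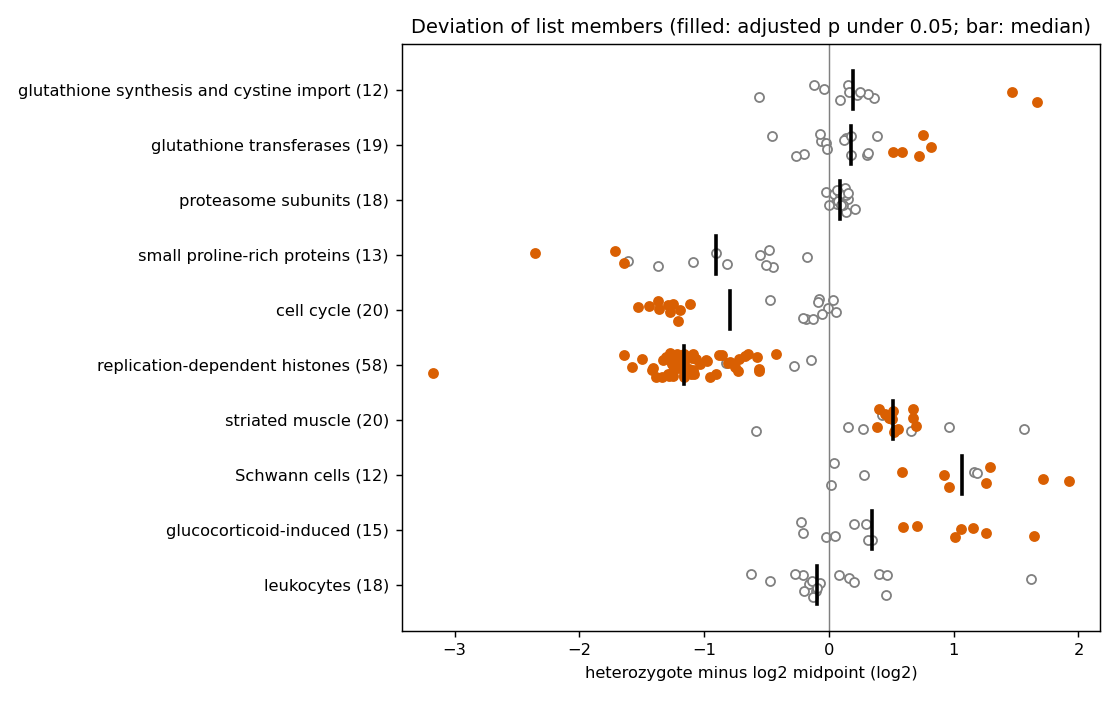
Deviation of the heterozygote from the log2 midpoint for each gene of 10 lists (points; filled where the adjusted p is under 0.05), with the median of each list as a bar. Histones and cell cycle genes lie mostly below 0, striated muscle, Schwann cell and glucocorticoid-induced genes mostly above 0, and proteasome subunits close to 0.

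Clock genes followed wild-type library 4 as well as genotype. Of 19 clock genes, a list drawn up after values were seen, 3 were above the midpoint and 1 below in all libraries, beside 5.03% and 3.95% of all genes. The count above was 1 without heterozygote library 3, 5 without homozygote library 4 and 10 without wild-type library 4. Ciart, a repressor within the clock, had 239, 198, 213 and 276 normalised counts in heterozygotes and 112, 144, 30.6 and 179.6 in homozygotes, against 8.13, 11.6, 11.2 and 152 in wild type. Its deviation of 2.32 (SE 0.64, adjusted p = 0.037) placed it among the dominant genes, but the call was made in 3 of the 12 fits that leave out a library (adjusted p 0.00046 to 0.083). Per2, which closes the clock's feedback loop, had 1113 to 2609.9 in heterozygotes and 217 to 1121 in homozygotes, against 182 to 1391 in wild type. It was not called (deviation 1.89, SE 0.58, adjusted p = 0.059).

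Transcription factors of squamous epithelium were below the midpoint for 5 of 18 and above for 0 (beside 3.95% and 5.03% of all genes, median deviation -0.35). In heterozygotes 10 were lower than in wild type and in homozygotes 6, beside 4.9% and 10.4%. Pitx1, a homeobox factor, had 3162 to 3924 in heterozygotes and 4781 to 5413 in homozygotes, against 4073 to 4785 in wild type (deviation -0.42, SE 0.068, adjusted p = 0.002), lower in heterozygotes and higher in homozygotes than in wild type. Zfp750, a driver of keratinocyte differentiation, had 2168 to 2791 in heterozygotes and 2703 to 3509.5 in homozygotes, against 2799 to 3346 in wild type (deviation -0.33, SE 0.079, adjusted p = 0.016, and adjusted p = 0.051 without heterozygote library 2). Of 14 immediate early genes 3 were below the midpoint and 0 above, beside 3.95% and 5.03% of all genes. Fos had 183, 156, 398 and 102 normalised counts in heterozygotes and 308, 305, 468 and 211 in homozygotes, against 524, 471, 526 and 369.7 in wild type (deviation -1.04, SE 0.30, adjusted p = 0.042). Its call was made in 3 of the 12 fits that leave out a library, those without heterozygote library 3, homozygote library 4 or wild-type library 4 (adjusted p up to 0.12 in the others), and was also lost with limma-voom and with the 12 libraries alone. Jun, its partner, had 1809 to 2419.7 in heterozygotes and 2418 to 2757 in homozygotes, against 2654 to 3455 in wild type (deviation -0.46, SE 0.10, adjusted p = 0.0099). Among glycolysis genes, Pfkp, a phosphofructokinase subunit, was heterozygote-only at 540.1 to 701 in heterozygotes and 789.8 to 1120.4 in homozygotes, against 958 to 1272 in wild type (deviation -0.71, SE 0.10, adjusted p = 0.00063). Pgam1, the phosphoglycerate mutase, was heterozygote-only at 2139 to 2631 in heterozygotes and 2915 to 3695 in homozygotes, against 3388 to 4293 in wild type (deviation -0.57, SE 0.081, adjusted p = 0.00071). Of the 14 genes of that list 2 were above the midpoint and 4 below, beside 5.03% and 3.95% of all genes.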

How the data were processed

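Whole esophagus RNA was sequenced with a directional library kit. The deposited table holds log2 values. Salmon and the build GRCm39 are named per the submitters' processing notes, with no version given. The values step as log2(n + 4), n being reads divided by a library's size factor, and up to 1000 reads 100% of recovered reads lay within 0.1 of a whole number. Low genes had been removed before deposition (the lowest value of a gene's highest library was 0.502 CPM).

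Values were converted back to normalised counts. Of 19942 genes, the 19857 with at least 1 normalised count in at least 4 libraries were fitted on log2(value + 1), which understates changes of low genes, with limma 3.58.1 (trend and robust settings, statmod 1.5.0, R 4.3.3). The 16 adult libraries shared a fit with 4 group means. Benjamini-Hochberg adjustment ran over every gene fitted, and a call needed an adjusted p under 0.05. The arithmetic deviation used the delta method on the same fit. The fit and classes were tested on simulated data. Totals were 10867765 to 32281399 reads, lower in L30F mutants than in wild type, which limits the precision of low genes there. Totals did not overlap between heterozygotes, homozygotes and wild type. A library batch that followed genotype could not be told apart from it.

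Classes combine the calls of homozygote against wild type, heterozygote against wild type, homozygote against heterozygote, and the deviation. Named genes were Nfe2l2, Keap1, Nqo1, Slc7a11 and Gclc, up to 6 a direction and class by size with a mean of at least 50, and up to 3 per list by p. The genes named by class, apart from partly dominant and opposite ones, also needed libraries that do not overlap in the comparison that defines the class. Some genes that this rule names are not reported here. Gclm, Abcc1, Txnrd1, Krt13, Krt17, Acta1, Zbtb16, Arntl, Dbp, Per2, Xist and Ddx3y were chosen after their values were seen, as were the genes given with deviations alone. The members, classes and lists were chosen with earlier results of these data known. The clock, glucocorticoid, Schwann, mitochondrial and histone lists were added after values were seen. Alternatives were other offsets, filters, scaling, tests, weights, covariates, a replicate block, equal depth, the arithmetic midpoint, a size threshold and leaving out each library.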

Additional observations from a re-analysis of the deposited data

Results flagged for a closer look

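Over the 80 genes whose values are given, 13 of 238 combinations of gene and genotype held a library whose gap to its nearest neighbour, as a share of the group's range, exceeded Dixon's 95% critical value for 4 libraries. Chance flags about 1 in 20 groups. Wild-type library 4 accounted for 7 of the 13. It was low for Arntl (179 normalised counts), Bglap2 (100.1), Bub1 (54.4) and Top2a (871), and high for Ciart (152), Krt6a (4445) and Per2 (1391). Wild-type library 1 was low for Serpina3i (19.0). Heterozygote library 1 was low for Dbp (1401), and heterozygote library 2 was low for Lsamp (299). Homozygote library 4 was low for Krt17 (338), homozygote library 1 was high for Sgo1 (147), and homozygote library 2 was low for Xist (1.66).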

How the results depend on the processing

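The count of 1782 genes off the midpoint stayed within 1.5 times under the other offsets, filters and scaling, the thinning to equal depth and limma-voom (1612, of which 42.9% were above the midpoint beside 56% in the fit reported). It was 1179 with the 12 libraries alone, 709 with weights per genotype, 946 with a size of at least 0.5, 48 with the striated muscle score, 250 with Ddx3y and 140 with the clock score as a term, and 961 to 2123 without a library at a time. The limma-voom fit was scaled by total reads alone, and its median deviation of all genes was -0.0575, beside 0.0045 in the fit reported. Additive genes numbered 17, 21 and 22 with the muscle, Ddx3y and clock terms and 32 to 57 without a library. Dominant genes numbered 63 with 12 libraries, 42 with weights, 59 by size, 2, 21 and 5 with the muscle, Ddx3y and clock terms, and 53 to 286 without a library. Heterozygote-only genes numbered 265, 220, 269, 20, 95 and 33 in the same order, and 145 to 548. Opposite genes numbered 33 with 12 libraries, 0, 9 and 2 with the 3 terms, and 15 to 82. Partly dominant genes numbered 12 with weights, 2, 8 and 4 with the 3 terms, 4 by the arithmetic midpoint, and 14 to 25. Recessive genes numbered 179 with weights, 184 by size, 19, 77 and 49 with the 3 terms, and 207 to 448. The weights per genotype were 0.646 in heterozygotes and 0.756 in homozygotes, against 1.32 in wild type and 1.55 in KEAP1flox/flox libraries, a lower weight standing for a wider spread. The cause of the losses was not tested.

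Against the arithmetic midpoint the deviations of Epgn (-0.31), Akr1d1 (-0.041), Nyx (-0.068), Krt6b (-2.63), Krt16 (-1.85), Krt6a (-1.77), Glyat (-1.35), Bglap3 (-0.76), Nlrp10 (-0.27) and Gsta3 (-0.061) had the opposite sign, which follows from the higher midpoint. Over 114 named genes and 3304 alternative values, 2773 kept direction and call, 495 lost the call, 6 gained it and 30 changed sign, these 10 and 20 that were not called in either fit. Those were Glyat with an offset of 5 (-0.053); Keap1 (0.021), Krt6a (-0.33), Bglap3 (-0.19), Calml3 (0.013) and Agps (0.043) with the muscle term; Keap1 (0.043), Krt6a (-0.24) and Nlrp10 (-0.042) with Ddx3y; Krt6b (-0.000112), Krt6a (-0.46), Padi1 (0.14) and Agps (0.029) with the clock score; and, over the fits without a library, Keap1 (-0.10 to 0.00058) and Krt6a (-0.31 to 0.41) without heterozygote library 1, Krt6b (-0.021 to 0.54), Padi1 (-0.28 to 0.21), Syt2 (-0.23 to 0.015) and Calml3 (-0.16 to 0.090) without heterozygote library 2 and Nlrp10 (-0.014 to 0.30) without heterozygote library 4. With the replicate number as a block 1650 genes were off the midpoint. Same-numbered libraries deviated with correlations of -0.16 to 0.13, and 2 of 12 libraries correlated best with their own number. No pairing by number was evident in these values, and the labels do not say what the number marks.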

Other observations

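Some genes of other cells or of low level were also off the midpoint. Xist, the noncoding RNA of the inactive X chromosome, had 31.7, 38.7, 20.6 and 77.1 in the heterozygote libraries and 6.31, 1.66, 6.11 and 5.23 in the homozygote libraries, against 4.74, 3.48, 3.11 and 8.74 in the wild-type libraries. All heterozygote libraries lay above all others, at levels far below those of the Y-linked Ddx3y in the same libraries (deviation 2.80, SE 0.38, adjusted p = 0.00049). Pgc, the pepsinogen C gene of glandular stomach, had 1.22, 1.43, 0 and 0 in the heterozygote libraries and 3.16, 6.63, 4.59 and 3.49 in the homozygote libraries, against 3.39, 10.4, 7.47 and 13.4 in the wild-type libraries (deviation -2.17, SE 0.38, adjusted p = 0.0031). Of 4 stomach genes tested 1 was above and 1 below the midpoint, beside 5.03% and 3.95% of all genes. Mucin genes gave 0 calls of 8 at a median deviation of 1.26, and red blood cell genes 0 of 7 at a median of 1.99. Over all genes 8.97% were called, so 0 calls is near that share for so few genes. The mean log2 level of the red blood cell genes was 9.66 to 13.15 in heterozygotes and 4.61 to 9.70 in homozygotes, against 8.21 to 12.08 in wild type. Of 12 antigen presentation genes 1 was higher in heterozygotes and 8 in homozygotes than in wild type, beside 4.8% and 11.8% of all genes, and 0 were off the midpoint, beside 8.97%. The position of the 8 was unresolved.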
